A study of Mus musculus with 18 samples.

Results

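The genes described here are 10 mouse snoRNA host genes, *Gas5*, *Snhg1*, *Snhg3*, *Snhg5*, *Snhg6*, *Snhg8*, *Snhg12*, *Snhg15*, *Snhg17* and *Zfas1*, out of 55414 genes in the count table. They were chosen by name as RNAs whose decay is known to depend on translation, with earlier results of these data known. The cells were N2A cells (Neuro-2a), a mouse neuroblastoma line. Scramble, *Fmr1* or *Zfp598* siRNAs were transfected, with 2 different siRNAs per target (A and B) and 3 replicate transfections of each, and total RNA was taken 72 h later and depleted of rRNA. Within each condition the libraries are named A1 to A3 and B1 to B3, which makes 18 in all. The Scramble siRNAs served as controls, and each KD left part of the target mRNA. The study asked whether FMRP, the product of *Fmr1*, directs transcripts to no-go decay, the decay of mRNAs with collided ribosomes that depends on the ubiquitin ligase Zfp598.

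A snoRNA host gene carries small nucleolar RNAs in its introns, which are released after splicing and guide chemical modification of ribosomal RNA. The spliced exons of these hosts hold no conserved long reading frame, but the RNA reaches the cytoplasm and binds ribosomes, which soon meet a stop codon followed by exon junctions. Such RNAs are classical substrates of nonsense-mediated decay (NMD), a pathway in which UPF1 and its partners destroy RNAs on which translation ends too early, and several of them begin with a run of pyrimidines like the mRNAs of ribosomal proteins. Their steady level therefore depends on both transcription and translation-coupled decay, and the counts measured here do not separate these.

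The first reading frames of the hosts were read from their canonical transcripts in GENCODE M39 (GRCm39), because they show where a ribosome that starts at the first ATG would stop. In 6 of the 10 hosts this frame held 8 codons or fewer before the stop. They are printed 5′ to 3′, with the ATG and the stop codon in capitals.
Zfas1: ATGactgggtgcTGA
Snhg5: ATGaccaagTGA
Snhg12: ATGacgcagactcagTAG
Snhg1: ATGgatcaacacgcggctTAG
Gas5: ATGggaaaagggggacctggcTAA
Snhg17: ATGtgctgtggaatcagtagtttgTAA

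The frame of *Snhg5* was the shortest, with 3 codons starting at base 58 of a transcript of 1481 bases. *Zfas1* followed with 4 codons from base 13 of 470 bases. The frames of *Snhg15* (35 codons), *Snhg8* (36 codons), *Snhg3* (42 codons) and *Snhg6* (53 codons) were longer. The median over the 10 hosts was 7.5 codons, whereas it was 17 codons over 29793 spliced canonical transcripts of long noncoding RNAs. A junction between exons lay 50 bases or more after the stop in 9 of the 10 hosts, the arrangement that NMD is known to recognise, and in 67.0% of those 29793 transcripts. *Snhg12* was the exception, since its canonical transcript has a single exon of 2842 bases. The first ATG lay at base 1 in *Snhg17* and at base 7 in *Snhg12* and *Snhg3*, so few or no annotated bases precede it there. A first ATG is a description of the sequence and was not measured as a start of translation.

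Sequence around the annotated starts was taken from RefSeq (GRCm38.p6), which held 9 of the 10 hosts with 11 starts. Each window is 30 bases on the strand of the gene with the start at base 16, and capitals mark the longest run of pyrimidines. *Snhg6* had no entry.
Gas5, second start, chr1:161035151-161035180, + strand: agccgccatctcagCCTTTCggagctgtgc
Snhg12, chr4:132308663-132308692, + strand: ggccgttctcagTCCTTTCTCgcttcatcc
Snhg8, chr3:123508322-123508351, - strand: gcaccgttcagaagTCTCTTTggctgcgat
Snhg3, chr4:132353672-132353701, - strand: tagtcgaccacgcctgaCTTCCgggcgtta
Snhg1, chr19:8723472-8723501, + strand: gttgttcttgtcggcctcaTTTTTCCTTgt
Snhg5, chr9:88522883-88522912, - strand: gagctgcggtgaaccgggctcgTTCTTTTa

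A C followed by at least 4 bases that are C or T, beginning within 5 bases of the start on the strand of the gene, was found at the first 4 of these windows. It was present in 4 of the 9 hosts with an entry. Over all 32851 RefSeq starts the share was 18.3%, and over 27025 genes 21.2%. Among the mRNAs of the translation machinery that are known for a terminal oligopyrimidine start, 31 of 64 (48.4%) held it. *Snhg1* and *Snhg5* had pyrimidine runs of 9 and 7 bases that began at bases 5 and 8 of the transcript. The starts not printed did not hold the pattern. Their longest runs were 3 bases (*Gas5*, first start), 4 bases (*Snhg15* and *Zfas1*), and 6 and 3 bases (*Snhg17*, first and second start).

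All 10 hosts had counts, but they differed widely in level. Levels are given as CPM, the counts scaled to library size by the TMM method, and for comparison between genes they were divided by the length of the canonical transcript. Reads were counted on exons, and all annotated exons of a host together are longer than that transcript. They span 4228 bases against 669 for *Gas5*, 3494 against 1130 for *Snhg1* and 2858 against 2842 for *Snhg12*. The order below therefore depends on the length chosen. *Zfas1*, which lies antisense to the start of *Znfx1* and carries the Snord12 family, was the highest with 565 ± 196 CPM per kb (mean ± SD, 18 libraries). *Snhg1*, the host of Snord22 and its neighbours, followed with 146 ± 29.5 CPM per kb, and *Gas5*, named for its accumulation in growth-arrested cells, with 133 ± 10.5 CPM per kb. With this length these last levels did not differ beyond their spread. *Snhg5*, the host of Snord50, stood at 49.4 ± 12.9 CPM per kb.

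A lower tier by the same length held *Snhg15* (26.7 ± 3.87 CPM per kb), *Snhg17* (25.6 ± 2.30 CPM per kb) and *Snhg6* (22.2 ± 4.67 CPM per kb), whose levels overlapped. *Snhg12* (12.6 ± 2.18 CPM per kb) and *Snhg8* (11.9 ± 2.07 CPM per kb) overlapped as well. *Snhg3*, the host of Snora73, was the lowest, with 1 to 13 counts per library and 1.01 ± 0.768 CPM per kb. It did not pass the filter on low counts, so 9 hosts were tested. In the annotation 64.2% of the exon sequence of *Snhg3* is shared with *Rcc1* on the same strand and 71.5% with *Gm17300* on the other strand, and how such reads were assigned is not given in the sources used here. Its counts are therefore uncertain, and no change is given for it.

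**Figure D1:**
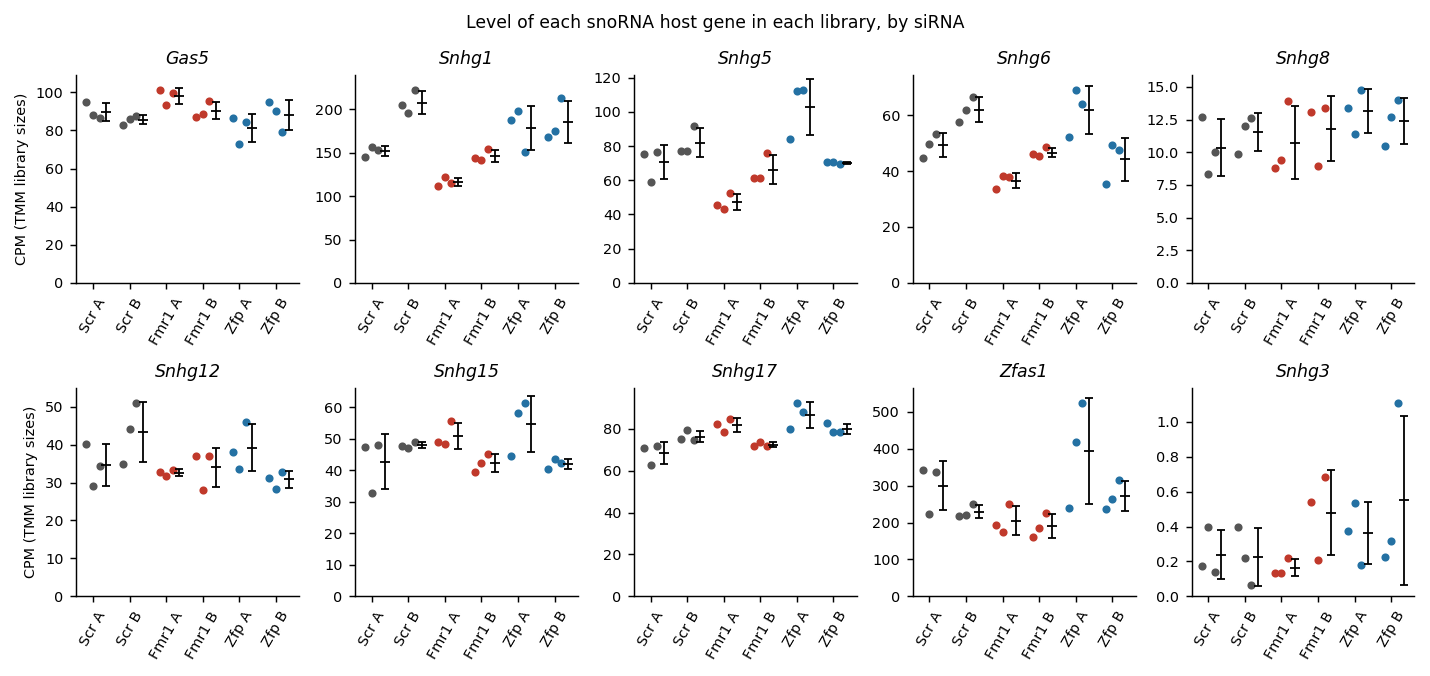
CPM (linear axis from 0) of each snoRNA host gene in each of the 18 libraries, grouped by siRNA (Scr, Scramble; Zfp, Zfp598), with the mean and SD of the 3 libraries of each siRNA as a bar beside the points. The 3 *Fmr1* siRNA A libraries of *Snhg1* lie between 112 and 122 CPM, below all other libraries, whereas *Gas5* stays between 72.7 and 101 CPM throughout.

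The snoRNAs themselves were nearly invisible to this assay. Of the 36 snoRNA genes annotated inside the 10 hosts on the same strand, 34 had 0 counts in every library, which for counting error alone allows up to 3 counts per library, or 0.192 to 0.534 CPM. *Snord87*, inside *Snhg6*, had 47 counts in all. The annotation places 34 of the 36 wholly within exons of their host, and how reads that lie in both genes were treated is not given in the sources used here. *Gm23201*, a snoRNA gene inside *Zfas1* on chromosome 2 (166906918 to 166907006, + strand, GRCm39), had 544 counts over the 18 libraries and was the only snoRNA gene to pass the filter. Its log2 fold change was 0.58 (SE 0.34, adjusted p = 0.336, edgeR) in *Fmr1* KD and 0.15 (SE 0.35, adjusted p = 0.871, edgeR) in *Zfp598* KD. The levels below therefore describe host RNAs and not the snoRNAs made from them.

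The depletion of both targets was checked first. *Fmr1* stood at 60.2 ± 6.51 CPM (SD, n = 6) in Scramble KD and 22.4 ± 5.13 CPM after its own KD (SD, n = 6). *Zfp598* went from 118 ± 9.49 CPM in Scramble KD to 41.1 ± 5.40 CPM after its own KD (SD, n = 6 each). Total counts per library ranged from 7674724 to 15414590. The most counted feature, which has no entry in the GENCODE M39 annotation, took 5.00% to 7.93% of the counts in 14 libraries, 8.83% and 11.1% in Scramble A3 and A1, and 15.2% and 25.8% in *Zfp598* A2 and A3. In *Fmr1* B1 the summed level of 9 embryonic stem cell markers was 36.3 CPM, against 3.16 to 8.58 CPM in the other libraries. Each of 12 neuroblastoma markers was detected in at least 1 library, with a summed level of 2192 to 3940 CPM per library, and 1 of 10 fibroblast markers had 0 counts throughout (summed level 218 to 265 CPM with *Fmr1* siRNA A, 257 to 307 CPM with *Zfp598* siRNA B and 488 to 714 CPM in the other groups).

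*Fmr1* KD was compared with Scramble KD with both siRNAs of a target pooled (n = 6 each). *Snhg1* fell, and no other host passed the test (adjusted p under 0.05 with edgeR's quasi-likelihood test, adjusted over all genes). This was 1 of 9 hosts tested, where 6.54% of all 17901 genes tested passed. Across the 9 hosts the median log2 fold change was -0.23, with 4 above 0 and 5 below, and it was 0.0025 over all genes. In bulk RNA a lower level in every cell and a loss from some of the cells cannot be told apart.

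*Snhg1* ranged from 146 through a median of 176 to 222 CPM in Scramble KD. In *Fmr1* KD it ranged from 112 through 131 to 155 CPM, so that the lower *Fmr1* libraries lay outside the Scramble range while the groups still overlapped. Its log2 fold change was -0.45 (SE 0.12, 95% confidence interval -0.70 to -0.21, adjusted p = 0.025, edgeR). The level fell by 26.9%. Without *Fmr1* B1, the library with the stem cell markers, it was -0.48. Leaving out a single library ended the call in 6 of 12 cases, namely any of the 3 *Fmr1* siRNA A or the 3 Scramble siRNA B libraries, with values between -0.50 and -0.38. The call was also lost when TMM was replaced by library totals computed without the most counted feature (-0.37, adjusted p = 0.0731, edgeR). That scaling moved the median of all genes in this comparison from 0.0025 to 0.081. With counts summed per siRNA, which leaves 2 against 2, the value was -0.47 (adjusted p = 0.999, edgeR). None of 22167 genes passed in that setting, so the call lost there says nothing about *Snhg1* in particular. *Snhg1* lies on chromosome 19 (8700319 to 8703812, + strand, GRCm39), and 21.3% of its exon sequence is shared with *Slc3a2* on the other strand. The strand setting of the counting is not given, and *Slc3a2*, which encodes an amino acid transporter subunit, had a log2 fold change of -0.17 (SE 0.12, adjusted p = 0.471, edgeR).

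A group of 3 further hosts had values of similar size without passing. *Snhg5* ranged from 59.0 through 76.9 to 91.6 CPM in Scramble KD and from 43.4 through 56.7 to 75.9 CPM in *Fmr1* KD. Its log2 fold change was -0.43 (SE 0.15, adjusted p = 0.0987, edgeR). *Snhg6*, the host of *Snord87*, ranged from 44.7 through 55.4 to 66.6 CPM and from 33.5 through 41.8 to 48.5 CPM, a log2 fold change of -0.42 (SE 0.14, adjusted p = 0.0784, edgeR).

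*Zfas1* was the third, with 219 through 236 to 342 CPM in Scramble KD and 161 through 188 to 250 CPM in *Fmr1* KD, a log2 fold change of -0.42 (SE 0.18, adjusted p = 0.183, edgeR). The groups overlapped for all 3 genes. The highest Scramble values of *Zfas1* were those of A1 and A3, which also had the larger shares of the most counted feature, and without the 4 libraries in which this share was over 8% its log2 fold change was -0.20 (adjusted p = 0.27, edgeR). *Snhg6* passed without those 4 libraries, at -0.50 (adjusted p = 0.0144, edgeR), where 2539 of 18402 genes passed. Scramble A2 alone then stands for Scramble siRNA A, while all *Fmr1* libraries remain. Between the Scramble siRNAs (B minus A, all libraries) the log2 difference was 0.33 for *Snhg6* and -0.38 for *Zfas1*, neither past the test. The part of this imbalance in both values was not tested.

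Of the remaining 5 hosts *Snhg12* was lower in *Fmr1* KD by the estimate, at -0.23 (95% confidence interval -0.50 to 0.05, adjusted p = 0.335, edgeR), the median of the hosts, and it did not pass. *Gas5* ranged from 83.0 through 87.0 to 94.9 CPM in Scramble KD and from 87.2 through 94.2 to 101 CPM in *Fmr1* KD, a log2 fold change of 0.10 with a 95% confidence interval of -0.06 to 0.27. The intervals of *Snhg17* (-0.08 to 0.26), *Snhg15* (-0.22 to 0.30) and *Snhg8* (-0.27 to 0.35) all held 0.

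**Figure D2:**
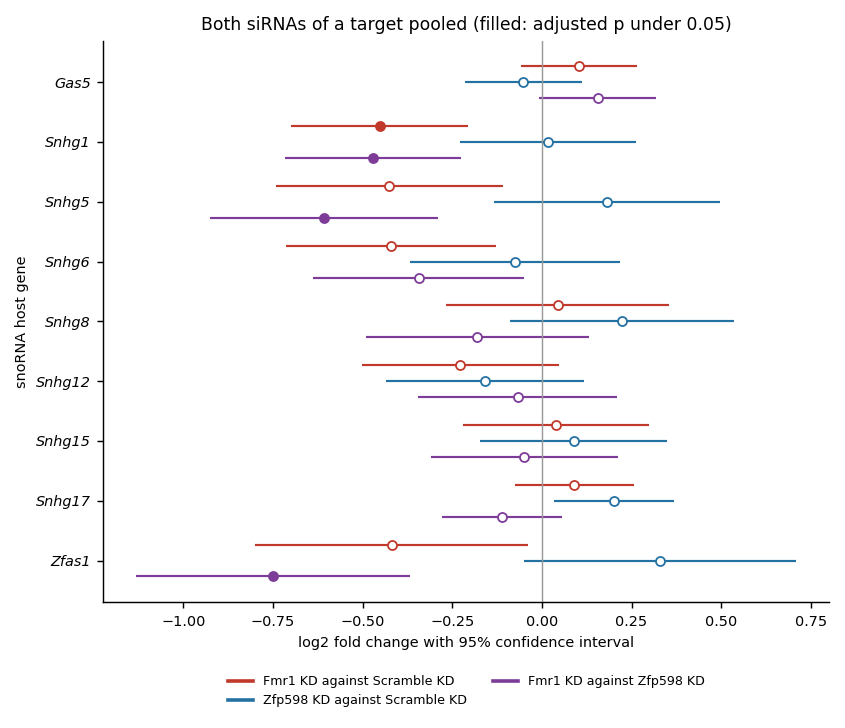
Log2 fold change (points) with its 95% confidence interval (lines) of the 9 snoRNA host genes tested, for *Fmr1* KD against Scramble KD (red), *Zfp598* KD against Scramble KD (blue) and *Fmr1* KD against *Zfp598* KD (purple), both siRNAs of a target pooled; filled points passed at an adjusted p under 0.05. *Snhg1* passed in both comparisons of *Fmr1* KD, and the points of *Zfp598* KD against Scramble KD are all open.

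*Zfp598* KD, also pooled, moved no host past the test against the same Scramble libraries. None of 9 passed, where 1.96% of all genes did, and 1 host (*Snhg17*) had an unadjusted p under 0.05. DESeq2 also called 0. The median log2 fold change of the hosts was 0.09, with 6 above 0 and 3 below, and that of all genes was 0.01. Without *Zfp598* A2 and A3 the median of the hosts was 0.0039, and without all 4 libraries with a large share of the most counted feature it was -0.05.

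*Snhg17* ranged from 62.7 through 73.2 to 79.2 CPM in Scramble KD and from 78.4 through 81.3 to 92.2 CPM in *Zfp598* KD. Its log2 fold change was 0.20 (SE 0.08, 95% confidence interval 0.03 to 0.37, adjusted p = 0.185, edgeR), and the groups overlapped. *Zfas1* had the largest value, 0.33 (SE 0.18, adjusted p = 0.355, edgeR), with 236 through 291 to 524 CPM in *Zfp598* KD. Its highest levels were 418 and 524 CPM in A2 and A3, the libraries with the largest share of the most counted feature, and its log2 fold change without these 2 libraries was 0.0039. *Snhg1* (0.02) and *Gas5* (-0.05) lay closest to 0, with intervals of -0.23 to 0.26 and -0.21 to 0.11.

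*Fmr1* KD was also set directly against *Zfp598* KD. *Snhg1*, *Snhg5* and *Zfas1* were lower in *Fmr1* KD and no host was higher, so 3 of 9 passed, where 5.39% of all genes did. The log2 fold changes were -0.47 (SE 0.12, adjusted p = 0.0238) for *Snhg1*, -0.61 (SE 0.15, adjusted p = 0.0238) for *Snhg5* and -0.75 (SE 0.18, adjusted p = 0.0203) for *Zfas1*, all with edgeR. The *Zfp598* KD levels were 150 through 181 to 213 CPM for *Snhg1* and 69.3 through 77.4 to 113 CPM for *Snhg5*, and they overlapped those of *Fmr1* KD for all 3 genes. The median of the hosts was -0.18 with 8 of 9 below 0, and that of all genes -0.01. Without the 4 libraries with a large share of the most counted feature *Snhg5* no longer passed (-0.37, adjusted p = 0.116, edgeR) and *Zfas1* stood at -0.42 (adjusted p = 0.0366, edgeR). There 1499 of 18402 genes passed, and *Zfp598* A1 alone stood for *Zfp598* siRNA A. Leaving out single libraries ended the call of *Snhg1* (any *Fmr1* siRNA A library or *Zfp598* B3) and of *Snhg5* (any *Fmr1* siRNA A library or *Zfp598* A2) in 4 of 12 cases each, and of *Zfas1* in 1 case (*Fmr1* A2). With library totals computed without the most counted feature in place of TMM *Snhg1* no longer passed (-0.39, adjusted p = 0.0684, edgeR), while the median of all genes moved to 0.074. With counts summed per siRNA none of the 3 passed (-0.68 to -0.50, adjusted p = 0.998 for each, edgeR). None of 22167 genes passed in that setting, so it cannot tell these hosts from other genes.

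**Figure D3:**
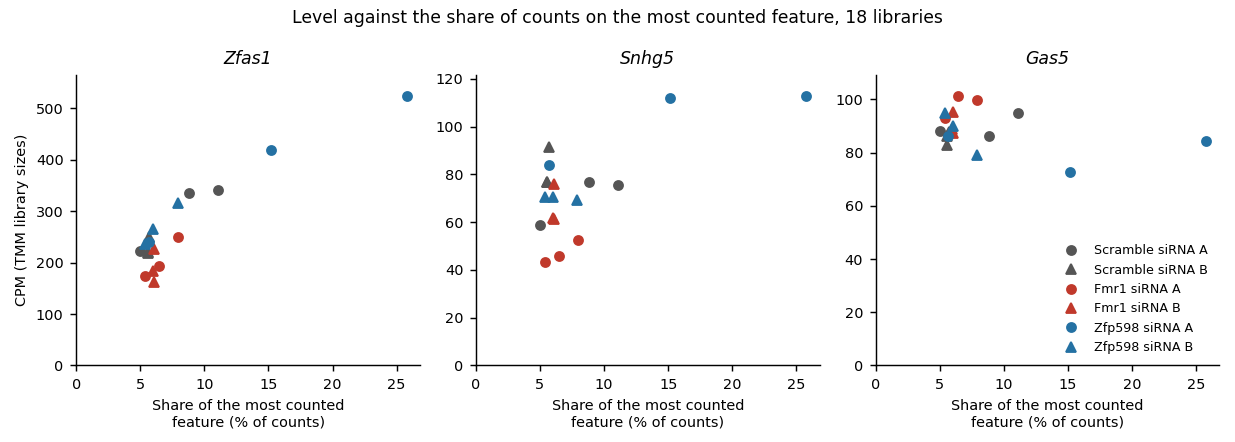
CPM of *Zfas1*, *Snhg5* and *Gas5* (vertical axes, linear from 0) against the percentage of all counts taken by the most counted feature, 1 point per library, circles for siRNA A and triangles for siRNA B. *Zfas1* is highest, at 418 and 524 CPM, in the libraries with shares of 15.2% and 25.8% (*Zfp598* A2 and A3), while *Gas5* lies between 72.7 and 101 CPM over the same range.

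The highest levels of *Zfas1* lay in the libraries with the largest share of that feature. The 4 libraries above 8% held the 4 highest *Zfas1* levels, 336 and 342 CPM in Scramble A3 and A1 and 418 and 524 CPM in *Zfp598* A2 and A3. *Zfp598* B3 and *Fmr1* A3, next at 7.92% and 7.93%, had 317 and 250 CPM, each the highest of its own siRNA. *Snhg5* was high in the *Zfp598* pair (112 and 113 CPM) but not in the Scramble pair (75.5 and 76.8 CPM). *Gas5* showed no rise with the share (72.7 and 84.5 CPM in *Zfp598* A2 and A3). The part of this feature in the changes of *Zfas1* was not tested. *Zfas1* shares 5.2% of its exon sequence with *Znfx1* on the other strand, and *Znfx1* had log2 fold changes of 0.16 (adjusted p = 0.567, edgeR) in *Fmr1* KD and 0.03 (adjusted p = 0.939, edgeR) in *Zfp598* KD. Taken by siRNA, as described next, *Znfx1* rose with *Fmr1* siRNA B (0.50, adjusted p = 0.000125) and *Zfp598* siRNA B (0.48, adjusted p = 0.000147), fell with *Zfp598* siRNA A (-0.32, adjusted p = 0.0135) and was lower with Scramble siRNA B than with Scramble siRNA A (-0.80, adjusted p = 6.16e-07), all with edgeR.

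The siRNAs were then taken apart, with A libraries set against Scramble A and B libraries against Scramble B (n = 3 each, a single model of the 6 groups). The letters come from the library names, which give no other link between a KD siRNA and the Scramble siRNA of its letter. More genes passed in this model than with the siRNAs pooled. With *Fmr1* siRNA A, 3 hosts fell and 1 rose, 4 of 9 where 23.6% of all genes passed. With *Fmr1* siRNA B, 2 fell and none rose, 2 of 9 where 22.7% of all genes passed. Both Scramble siRNAs serve as controls for the *Zfp598* siRNAs too, so the values that follow are given side by side.

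*Snhg1* was lower with both *Fmr1* siRNAs. It stood at 146, 157 and 154 CPM in Scramble A1 to A3 and at 112, 122 and 115 CPM in *Fmr1* A1 to A3, a log2 fold change of -0.39 (SE 0.10, adjusted p = 0.0075, edgeR). In the siRNA B libraries it stood at 205, 196 and 222 CPM in Scramble and at 144, 141 and 155 CPM in *Fmr1* KD, a log2 fold change of -0.50 (SE 0.10, adjusted p = 0.000909, edgeR). No library of either KD group reached its controls. The *Fmr1* siRNA B libraries nevertheless lay at the level of the Scramble siRNA A libraries. *Slc3a2*, which shares exon sequence with it on the other strand, had log2 fold changes of 0.06 (adjusted p = 0.762, edgeR) with siRNA A and -0.44 (adjusted p = 0.0116, edgeR) with siRNA B. Both calls of *Snhg1* held when any single library was left out.

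*Snhg6* showed the same arrangement. Its levels were 44.7, 49.8 and 53.3 CPM in Scramble A1 to A3 and 33.5, 38.4 and 37.9 CPM in *Fmr1* A1 to A3, a log2 fold change of -0.43 (SE 0.12, adjusted p = 0.0127, edgeR). With siRNA B they were 57.5, 61.9 and 66.6 CPM in Scramble and 46.1, 45.2 and 48.5 CPM in *Fmr1* KD, a log2 fold change of -0.41 (SE 0.12, adjusted p = 0.016, edgeR). The groups did not overlap for either siRNA. The calls were lost without *Fmr1* A1 or Scramble A3 for siRNA A, and without *Fmr1* B1, *Fmr1* B2 or Scramble B3 for siRNA B.

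*Snhg5* passed with *Fmr1* siRNA A alone. It stood at 75.5, 59.0 and 76.8 CPM in Scramble A1 to A3 and at 45.8, 43.4 and 52.3 CPM in *Fmr1* A1 to A3, a log2 fold change of -0.58 (SE 0.13, adjusted p = 0.0021, edgeR). With siRNA B the log2 fold change was -0.31 (SE 0.12, adjusted p = 0.083, edgeR), with 76.9, 77.0 and 91.6 CPM in Scramble and 61.1, 61.5 and 75.9 CPM in *Fmr1* KD, which do not overlap either. The difference between the effects of both siRNAs was 0.27 (95% confidence interval -0.10 to 0.64, adjusted p = 0.317, edgeR), so no difference between them was shown. Without the 4 libraries with a large share of the most counted feature, which leaves Scramble A2 alone on the control side, the siRNA A value was -0.32 (adjusted p = 0.0726, edgeR).

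*Snhg17* rose with *Fmr1* siRNA A. It stood at 71.1, 62.7 and 71.9 CPM in Scramble A1 to A3 and at 82.2, 78.3 and 84.7 CPM in *Fmr1* A1 to A3, a log2 fold change of 0.25 (SE 0.08, adjusted p = 0.0214, edgeR). The call was lost without *Fmr1* A1, *Fmr1* A3 or Scramble A2. With siRNA B its log2 fold change was -0.07 (SE 0.08, adjusted p = 0.539, edgeR). The difference between the siRNAs was itself past the test, at -0.33 (SE 0.11, adjusted p = 0.0367, edgeR), 1 of 9 hosts in that comparison, where 21.8% of all genes passed, and this call was lost in 9 of 12 cases of a library left out.

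The hosts that passed rose with *Zfp598* siRNA A and fell with *Zfp598* siRNA B. With siRNA A, *Snhg5* and *Snhg17* rose and none fell, 2 of 9 where 11.9% of all genes passed, and the median of the hosts was 0.34 with 8 above 0. This median was 0.14 without *Zfp598* A2 and A3. With siRNA B, *Snhg6* and *Snhg12* fell and none rose, 2 of 9 where 26.8% of all genes passed, and the median was -0.16 with 4 above 0. The median of all genes was within 0.0091 of 0 in both comparisons.

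*Snhg5* stood at 84.1, 112 and 113 CPM in *Zfp598* A1 to A3, above all Scramble siRNA A libraries, a log2 fold change of 0.54 (SE 0.13, adjusted p = 0.00777, edgeR). *Snhg17* stood at 80.0, 92.2 and 87.9 CPM in the same libraries, a log2 fold change of 0.34 (SE 0.08, adjusted p = 0.00826, edgeR). For both genes the call was lost without Scramble A2 or *Zfp598* A2. Libraries A2 and A3 have the large shares of the most counted feature. With both removed A1 alone stands for the group, so these calls cannot be checked without them.

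*Snhg12*, which carries Snora16a, Snora44, Snora61 and Snord99, stood at 35.0, 44.1 and 50.9 CPM in Scramble B1 to B3 and at 31.3, 28.4 and 32.8 CPM in *Zfp598* B1 to B3. Its log2 fold change was -0.49 (SE 0.14, adjusted p = 0.0155, edgeR), and the call was lost without Scramble B3 or *Zfp598* B2. *Snhg6* stood at 35.5, 49.5 and 47.5 CPM in *Zfp598* B1 to B3, below the Scramble siRNA B libraries, a log2 fold change of -0.49 (SE 0.12, adjusted p = 0.00461, edgeR). With *Zfp598* siRNA A *Snhg6* stood at 52.3, 69.0 and 63.9 CPM, a log2 fold change of 0.32 (SE 0.12, adjusted p = 0.0926, edgeR). That value was 0.07 without *Zfp598* A2 and A3 and 0.06 without all 4 libraries with a large share of the most counted feature. *Zfp598* itself had log2 fold changes of -1.54 with siRNA A and -1.52 with siRNA B. *Fmr1* had log2 fold changes of 0.29 (adjusted p = 0.108, edgeR) with *Zfp598* siRNA A and -0.33 (adjusted p = 0.036, edgeR) with *Zfp598* siRNA B, and its part in the host levels was not tested.

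**Figure D4:**
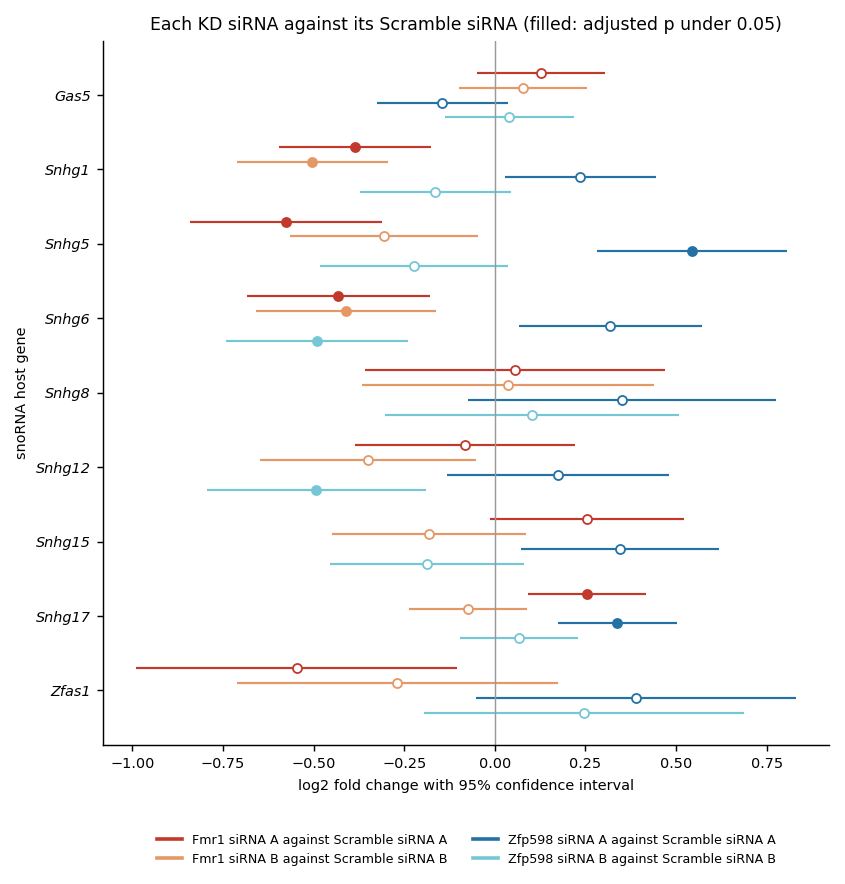
Log2 fold change (points) with its 95% confidence interval (lines) of the 9 snoRNA host genes tested, for each KD siRNA against the Scramble siRNA of the same letter (dark red and orange, *Fmr1* siRNA A and B; dark and light blue, *Zfp598* siRNA A and B); filled points passed at an adjusted p under 0.05. For *Snhg6* both *Fmr1* siRNAs and *Zfp598* siRNA B are filled below 0, whereas *Zfp598* siRNA A lies at 0.32 and is open (0.07 without A2 and A3).

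The difference between the effects of the *Zfp598* siRNAs was tested directly. It passed for 5 of 9 hosts, where 21.9% of all genes passed, and in all 5 siRNA B gave the lower value. The difference (siRNA B minus siRNA A, log2 scale) was -0.81 (SE 0.17, adjusted p = 0.00175, edgeR) for *Snhg6* and -0.77 (SE 0.18, adjusted p = 0.00367, edgeR) for *Snhg5*. Both stayed past the test when any single library was left out. *Snhg12*, *Snhg15* and *Snhg1* also passed, and their calls were lost in 7, 9 and 10 of 12 such cases. Each difference also holds the gap between the Scramble siRNAs. For *Snhg1* that gap was 0.45, whereas the *Zfp598* siRNAs themselves differed by 0.05 (SE 0.10, adjusted p = 0.736, edgeR). Without the 4 libraries with a large share of the most counted feature the value of *Snhg6* was -0.54 (adjusted p = 0.0576, edgeR) and that of *Snhg5* -0.72 (adjusted p = 0.00651, edgeR). The siRNA A effect then rests on *Zfp598* A1 against Scramble A2, 1 library on each side that is assumed to vary like the other groups, so these p-values have no replicates of their own behind them.

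The siRNAs of a condition also differed from each other before any comparison with a control. *Snhg1* was higher with Scramble siRNA B than with Scramble siRNA A, by 0.45 on the log2 scale (SE 0.10, adjusted p = 0.0026, edgeR), and this was 1 of 9 hosts where 22.7% of all genes passed. Between the *Fmr1* siRNAs, *Snhg1* (0.33), *Snhg5* (0.49) and *Snhg6* (0.35) were higher with siRNA B, 3 of 9 where 24.3% of all genes passed. Between the *Zfp598* siRNAs, *Snhg5* (-0.55), *Snhg6* (-0.48) and *Snhg15* (-0.37) were lower with siRNA B, 3 of 9 where 35.3% of all genes passed. With single libraries left out, *Snhg6* between the *Fmr1* siRNAs was lost in 6 of 6 cases, *Snhg1* there without *Fmr1* A1, A3 or B3, *Snhg5* there without *Fmr1* B3, and *Snhg15* between the *Zfp598* siRNAs in 5 of 6 cases (all except *Zfp598* A1). The gap of *Snhg1* between the 2 Scramble controls was thus as large as its change in *Fmr1* KD. With the 4 libraries with a large share of the most counted feature removed, siRNA A is a single library in Scramble KD (A2) and in *Zfp598* KD (A1). The gaps between the Scramble siRNAs and between the *Zfp598* siRNAs then have no replicates behind them, and no count of hosts is given.

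Genes of the cell cycle moved with the same siRNAs. The summed level of 25 proliferation genes was 1339 to 1482 CPM with Scramble siRNA A and 2537 to 2903 CPM with Scramble siRNA B. In *Fmr1* KD it was 1267 to 1326 CPM with siRNA A and 2192 to 2340 CPM with siRNA B, and in *Zfp598* KD 1864 to 1989 CPM and 1959 to 2074 CPM. Between the Scramble siRNAs 24 of 25 rose, led by the replication factors *Mcm5* (1.41), *Cdc6* (1.33) and *Mcm3* (1.26). Between the *Fmr1* siRNAs 23 rose and none fell, and between the *Zfp598* siRNAs 13 rose and 3 fell. These were 96%, 92% and 64% of the list, where 22.7%, 24.3% and 35.3% of all genes passed. The part of these differences in the host levels was not tested.

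Other host genes and related pathways were counted from lists of named genes. Of 11 other noncoding snoRNA hosts, 7 were tested. In *Fmr1* KD 1 rose and none fell (median log2 fold change 0.09), and in *Zfp598* KD none passed (median 0.33, all 7 above 0, 3 with an unadjusted p under 0.05, 0 by DESeq2). With *Zfp598* siRNA A 2 rose, among them *Snhg16* (0.66, SE 0.16, adjusted p = 0.012, edgeR). With *Zfp598* siRNA B *Snhg10* (0.66, SE 0.20, adjusted p = 0.0174, edgeR) and *Snhg14* (0.57, SE 0.11, adjusted p = 0.000778, edgeR) rose. These were 2 of 7 with each siRNA, where 11.9% and 26.8% of all genes passed. The median with *Zfp598* siRNA A was 0.38, and 0.0085 without *Zfp598* A2 and A3, which leaves A1 alone.

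The protein-coding hosts, many of them genes of ribosomal proteins and of ribosome assembly, were all tested (34). In *Fmr1* KD none passed with edgeR (median -0.11, 4 with an unadjusted p under 0.05, 1 by DESeq2), and in *Zfp598* KD none passed either (median -0.05, 7 with an unadjusted p under 0.05, 3 by DESeq2). With *Zfp598* siRNA A 5 rose, led by *Rps2* (1.00), *Rpl12* (0.68) and *Rps3* (0.63). With *Zfp598* siRNA B 10 fell, led by *Rpl4* (-1.26), *Rpl17* (-1.22) and *Rpl13a* (-0.93). The shares that passed, 14.7% and 29.4%, were near those of all genes (11.9% and 26.8%). The median with *Zfp598* siRNA A was 0.10, and 0.024 without *Zfp598* A2 and A3, which leaves A1 alone. Ribosomal protein genes share sequence with many pseudogenes, so their counts are uncertain.

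The 91 mRNAs with a terminal oligopyrimidine start, which overlap that list, were counted in the same way. With *Zfp598* siRNA B 29 fell and 1 rose (median -0.25), and with *Zfp598* siRNA A 11 rose and 2 fell (median 0.15). The shares that passed were 33.0% and 14.3%, where 26.8% and 11.9% of all genes passed. Without *Zfp598* A2 and A3, which leaves A1 alone, the median with siRNA A was 0.01. In pooled *Fmr1* KD 2 fell, the translation factor *Eif4b* (-0.45) and *Rpl9* (-0.43), and the median was -0.08.

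Few genes of the machinery around the hosts passed in the pooled comparisons. Of 20 NMD factors *Nbas* fell in *Fmr1* KD (-0.39, SE 0.09, adjusted p = 0.0116, edgeR), and none passed in *Zfp598* KD (3 with an unadjusted p under 0.05, 0 by DESeq2). With *Zfp598* siRNA B 3 rose and 5 fell, among them *Upf1*, the central helicase of NMD (0.58, SE 0.09), its partner *Upf3a* (-0.71, SE 0.12) and *Dhx34* (-0.53, SE 0.17). This was 40% of the list, where 26.8% of all genes passed. With *Zfp598* siRNA A none rose and 1 fell, *Rbm8a* of the exon junction complex (-0.43, SE 0.10), 5% of the list where 11.9% of all genes passed. Of 18 genes of snoRNA-protein complexes *Nhp2*, a core protein of the H/ACA class (0.50, SE 0.14, adjusted p = 0.0342, edgeR), and *Nolc1*, a nucleolar chaperone of these complexes (0.38, SE 0.09, adjusted p = 0.0141, edgeR), rose in *Fmr1* KD. *Nolc1* rose with both *Fmr1* siRNAs (0.47 and 0.29), and *Nhp2* rose with siRNA A (0.85) and stood at 0.12 (adjusted p = 0.556, edgeR) with siRNA B. The pair made 11.1% of this list in *Fmr1* KD, where 6.54% of all genes passed, and the median was 0.12 with 14 above 0 and 4 below. With *Fmr1* siRNA A 7 genes of the list rose and none fell, and with siRNA B 2 rose and 2 fell. These were 38.9% and 22.2% of the list, where 23.6% and 22.7% of all genes passed. None passed in *Zfp598* KD (2 with an unadjusted p under 0.05, 0 by DESeq2).

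Other known substrates of NMD were 9 stress and reference genes. *Ddit3*, which encodes the stress factor CHOP, fell in *Fmr1* KD (-0.90, SE 0.22, adjusted p = 0.0153, edgeR) and in *Zfp598* KD (-0.83, SE 0.22, adjusted p = 0.048, edgeR). Taken by siRNA, it fell with *Fmr1* siRNA B (-1.80, adjusted p = 3.92e-09, edgeR), whereas its value with *Fmr1* siRNA A was -0.23 (adjusted p = 0.177, edgeR), and it fell with *Zfp598* siRNA A (-0.55) and siRNA B (-1.10). *Tbl2* fell in *Fmr1* KD (-0.43, SE 0.13, adjusted p = 0.0476, edgeR), with values of -0.20 (adjusted p = 0.155, edgeR) for siRNA A and -0.60 (adjusted p = 0.000133, edgeR) for siRNA B. The median of the 9 was -0.28 in *Fmr1* KD and -0.14 in *Zfp598* KD. The shares that passed were 22.2% and 11.1%, where 6.54% and 1.96% of all genes did. No gene of this list or of the 9 hosts passed with a rise in either pooled KD. Of all 17901 genes 489 did in *Fmr1* KD and 164 in *Zfp598* KD, so the lack of one among so few genes tells little. The highest values of the list were 0.45 and 0.43, which did not pass. Taken by siRNA, 1 gene of the list rose and none fell with *Fmr1* siRNA A, and 1 rose and 5 fell with siRNA B. With *Zfp598* siRNA A none rose and 2 fell, and with siRNA B 2 rose and 5 fell. These were 11.1%, 66.7%, 22.2% and 77.8% of the list, where 23.6%, 22.7%, 11.9% and 26.8% of all genes passed.

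**Figure D5:**
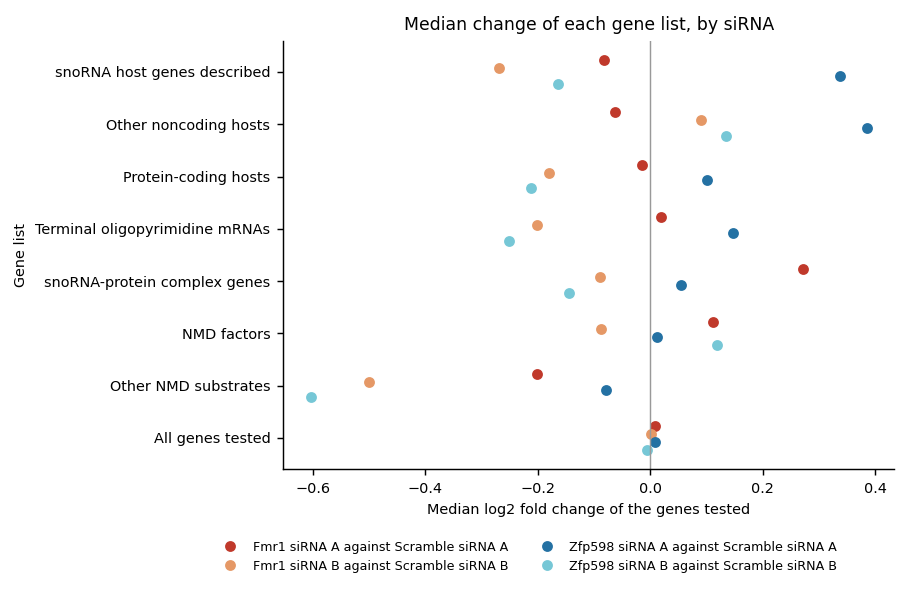
Median log2 fold change of the tested genes of each list (rows), for each KD siRNA against the Scramble siRNA of the same letter (colours), with all genes tested in the lowest row. The 9 hosts have medians of -0.08 and -0.27 with *Fmr1* siRNA A and B and of 0.34 and -0.16 with *Zfp598* siRNA A and B, and the medians of all genes lie between -0.0061 and 0.0095. Without the 4 libraries with a large share of the most counted feature the hosts' median with *Fmr1* siRNA A is 0.15, and without *Zfp598* A2 and A3 that with *Zfp598* siRNA A is 0.14.

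The hosts did not move as a single group. Over the 18 libraries the Pearson correlation of log2 CPM between pairs of the 9 hosts had a median of 0.33 over 36 pairs, 27 of them above 0, and it is given as a description because the points share libraries and groups. *Snhg5* and *Snhg6* were the closest pair (0.84), and *Snhg1* was close to both (0.68 and 0.72). *Gas5* had a value below 0 with every other host, from -0.76 with *Snhg6*, -0.72 with *Snhg1* and -0.66 with *Snhg5* to -0.12 with *Snhg12*. The only other pair below 0 was *Snhg1* with *Snhg15* (-0.08). *Zfas1* was closest to *Snhg5* (0.74).

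The genes whose pattern was most like the mean standardised level of the 9 hosts were sought among 12101 genes with a mean of at least 50 counts. They were *H4c9* (Pearson 0.91 over 18 libraries), a replication-dependent histone gene with near-identical copies and thus uncertain counts, *Nop53* (0.89), a factor of ribosome assembly, *Ubr7* (0.88), *Stmn1* (0.87), which encodes a microtubule regulator, and *Tyw1* (0.87), an enzyme of tRNA modification. These values are the highest of many and are given without a test.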

How the data were processed

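RNA-seq of N2A cells was analysed from the deposited counts, 1 table of raw counts per gene for 18 libraries. The authors trimmed the reads with Trim Galore, checked them with FastQC, used STAR for alignment to GRCm39 and featureCounts for reads on exons. The annotation release, the strand setting and the treatment of reads that fit several places or genes are not given in the sources used here, which matters for hosts that share exon sequence with other genes. Gene symbols came from GENCODE M39, which held 54749 (98.8%) of the 55414 genes. Of these genes 18139 had 0 counts.

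Counts were tested with edgeR 4.0.16 (R 4.3.3, limma 3.58.1) by the quasi-likelihood test with TMM scaling, after a filter (filterByExpr, minimum count 10, minimum total 15) that kept 17901 genes. Benjamini-Hochberg adjustment ran over these 17901 genes, and passed means an adjusted p under 0.05. No host changed more than 2-fold. SEs were derived from the test statistic, and intervals are 95% confidence intervals. One model pooled both siRNAs of a condition (n = 6) and another held the 6 siRNA groups (n = 3). Pooling treats a difference between siRNAs as one between libraries. The replicates are transfections in 1 cell line, so the p-values measure the spread between these libraries. No pair of libraries of an siRNA agreed within sampling noise (chi-square per degree of freedom at least 2.64 over 18 pairs). Total counts were 7674724 to 15414590 per library, and floors cover counting error only. The script was tested on simulated data.

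Genes named from a list are the 3 with the largest change among those past the test, and the genes of most similar pattern are the 5 with the highest correlation. Members and lists were chosen with earlier results of these data known. Alternatives were DESeq2 1.42.0, other scalings, no filter, a term for siRNA letter, counts summed per siRNA, a replicate block, all Scramble libraries as controls and left-out libraries. Removing the 4 libraries with over 8% of counts on 1 feature was chosen after seeing the data. Some genes of the lists are not reported here.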

Additional observations from a re-analysis of the deposited data

Results flagged for a closer look

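*Snhg15* in Scramble KD had 1 library far from the others. Replicate A2 stood at 32.8 CPM, and the gap to the next library took 0.885 of the range of the 6 libraries, above the critical value of Dixon's test. This was 1 of 27 groups of 6 examined, and chance gives about 1 in 20.

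The effects of the *Zfp598* siRNAs differed for 5 hosts (siRNA B minus siRNA A, log2 scale, edgeR, Benjamini-Hochberg adjusted p), and those of the *Fmr1* siRNAs for 1, out of 18 differences examined. For *Zfp598* KD the values were -0.81 for *Snhg6* (adjusted p = 0.00175), -0.77 for *Snhg5* (adjusted p = 0.00367), -0.67 for *Snhg12* (adjusted p = 0.0251), -0.53 for *Snhg15* (adjusted p = 0.043) and -0.40 for *Snhg1* (adjusted p = 0.0479). For *Fmr1* KD the value of *Snhg17* was -0.33 (adjusted p = 0.0367). These values include the gap between the Scramble siRNAs, which was 0.45 for *Snhg1*, where the *Zfp598* siRNAs themselves differed by 0.05. The calls of *Snhg6* and *Snhg5* held in 12 of 12 cases of a library left out, and those of *Snhg12*, *Snhg15*, *Snhg1* and *Snhg17* were lost in 7, 9, 10 and 9 of 12. Without the 4 libraries with a large share of the most counted feature *Snhg6* (adjusted p = 0.0576) and *Snhg1* (adjusted p = 0.0828) no longer passed, with 1 library left for each of Scramble and *Zfp598* siRNA A.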

How the results depend on the processing

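Counts of hosts past the test (of 9) changed by over 1.5 times as follows, and the cause was not tested. The number of all genes past the test also changed with the setting. With library totals computed without the most counted feature in place of TMM, 0 passed in *Fmr1* KD, 2 between the Scramble siRNAs and 2 in the difference between the *Zfp598* siRNA effects. Of all 17901 genes 1163, 4023 and 4049 passed there. This scaling moved the median of all genes to 0.081 in *Fmr1* KD and to 0.11 between the *Zfp598* siRNAs. It moved the share of higher calls in *Fmr1* KD from 41.8% to 66.7%. With it *Snhg12* and *Snhg15* in *Fmr1* KD against *Zfp598* KD became 0.023 and 0.042, and *Snhg17* with *Fmr1* siRNA B 0.011. With counts summed per siRNA 0 passed in *Fmr1* KD and 0 in *Fmr1* KD against *Zfp598* KD, at 2 against 2. None of 22167 genes passed in that setting. With no filter 5 passed with *Fmr1* siRNA B, 3 between the Scramble siRNAs and 0 in the difference between the *Fmr1* siRNA effects. Of 37275 genes 4367, 4058 and 3889 passed there. DESeq2 called 2 between the Scramble siRNAs, where it called 4346 of 17901 genes.

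With all 6 Scramble libraries as controls 1 passed with *Fmr1* siRNA B and 1 with *Zfp598* siRNA B, where 3660 and 5353 of 17901 genes passed. *Snhg8* with *Fmr1* siRNA A became -0.026, *Snhg17* with *Fmr1* siRNA B 0.0032 and *Snhg1* with *Zfp598* siRNA B 0.061. Without *Zfp598* A2 and A3, which leaves A1 alone, *Zfas1* became -0.33 with *Zfp598* siRNA A. In pooled *Zfp598* KD *Gas5* then became 0.0046, *Snhg5* -0.043 and *Snhg15* -0.081. Removing the 4 libraries with a large share of the most counted feature leaves 1 library each for Scramble and *Zfp598* siRNA A. Counts of hosts in comparisons that rest on these single libraries are not given. In pooled *Fmr1* KD 2 hosts then passed, where 2539 of 18402 genes did. With *Fmr1* siRNA B, whose groups keep 3 libraries each, 4 passed, where 6013 of 18402 genes did. In pooled *Zfp598* KD *Gas5* then became 0.022, *Snhg1* -0.069, *Snhg5* -0.049 and *Snhg15* -0.048. In *Fmr1* KD against *Zfp598* KD *Snhg12* became 0.030 and *Snhg15* 0.13, and with *Fmr1* siRNA A *Snhg12* became 0.16.

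Deviations of same-numbered libraries had a median correlation of 0.0397 over 45 pairs (-0.34 to 0.29), against -0.0163 over 90 other pairs. This shows no clear pairing by replicate number and cannot exclude a weak one. With a replicate block 4 passed with *Fmr1* siRNA B, 2 between the Scramble siRNAs and 5 between the *Zfp598* siRNAs. Of all 17901 genes 4298, 4349 and 6557 passed in these comparisons.

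With 1 library left out, the counts ranged from 0 to 2 in *Fmr1* KD, 0 to 3 in *Fmr1* KD against *Zfp598* KD, 2 to 4 and 1 to 3 with *Fmr1* siRNA A and B, 0 to 5 and 1 to 2 with *Zfp598* siRNA A and B, 1 to 2, 0 to 2 and 2 to 4 between the Scramble, *Fmr1* and *Zfp598* siRNAs, and 0 to 1 and 2 to 5 in the differences between the *Fmr1* and *Zfp598* siRNA effects. Hosts that did not pass changed sign, with ranges in *Fmr1* KD of -0.022 to 0.11 (*Snhg8*) and -0.035 to 0.087 (*Snhg15*), in *Zfp598* KD of -0.032 to 0.088 (*Snhg1*) and -0.16 to 0.016 (*Snhg6*), in *Fmr1* KD against *Zfp598* KD of -0.12 to 0.020 (*Snhg12*) and -0.10 to 0.028 (*Snhg15*), with *Fmr1* siRNA A of -0.17 to 0.22 (*Snhg8*) and -0.19 to 0.036 (*Snhg12*), with *Fmr1* siRNA B of -0.056 to 0.21 (*Snhg8*) and with *Zfp598* siRNA B of -0.011 to 0.11 (*Gas5*).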
